A study of Homo sapiens with 26 samples.

Results

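Interferon-stimulated genes are the antiviral and immune genes that cells switch on when an interferon is sensed. A list of 44 of them was followed here, set by gene symbol as known members of this response. No value in these samples was a criterion for membership, but earlier results of these data were known when the list was chosen. All 44 were found in each of the 3 deposited count tables, among 19206 genes in the Biowire macrophage table, 18771 in the digested control table and 21991 in the cardiomyocyte table.

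The study built Biowires, which are engineered human cardiac microtissues, from human embryonic stem cell (hESC) derivatives and sequenced total RNA of cells sorted back out of them. Macrophages (MF) were wild-type hES2 hESC-macrophages in every macrophage group, and cardiomyocytes (CM) were wild-type ESI17 hESC-cardiomyocytes. FB is taken to mean fibroblasts, an abbreviation the labels leave unexplained. Macrophages and cardiomyocytes each come from a single stem cell line, so nothing here covers variation between donors.

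Biowire macrophages were taken at day 14 from tissues of macrophages alone (MF), macrophages with FB (FB+MF), or all 3 cell types (CM+FB+MF), with 3 libraries each. Digested control macrophages came from the same 3 combinations, labelled as digested cells with 40 min of digestion and no day of culture, again with 3 libraries each. Cardiomyocytes were taken at day 3 from Biowires of CM+FB or of CM+FB+MF, with 4 libraries each. All samples went through enzymatic digestion with flavopiridol, an inhibitor of transcription, and were stained for CD14 and CD45 before sorting. Nothing in the labels states that replicates came from separate cultures, so a p-value reflects the spread between libraries, which may be technical.

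Type I interferons bind the receptor made of IFNAR1 and IFNAR2, and the kinases JAK1 and TYK2 then start a signal that ends in the complex ISGF3, of which STAT2 and IRF9 are subunits. ISGF3 binds the interferon-stimulated response element (ISRE) in the promoters of its target genes. The products block viruses at many steps, from entry to RNA decay and protein synthesis, and several of them are the sensors and transcription factors of the pathway itself. Macrophages are known to keep part of this programme active without infection, and cardiomyocytes to express it at low levels.

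Library totals ran from 6983800 to 13665322 counts in the macrophage libraries and from 12604684 to 30936910 in the cardiomyocyte libraries. All 20 macrophage markers examined were detected in every macrophage group. Their summed levels, in CPM (counts scaled to the library total), were 12088 to 13917 in MF, 16924 to 18526 in FB+MF and 19003 to 20264 in CM+FB+MF Biowire libraries, without overlap between these groups, and 15352 to 16700 in digested libraries. All 17 cardiomyocyte markers were detected in the cardiomyocyte libraries. In the Biowire macrophage libraries from CM+FB+MF tissue the same 17 markers summed to between 1251 and 2963 CPM, and their mean was 1.49% of that in cardiomyocytes without macrophages. In the MF and FB+MF Biowire libraries these markers summed to at most 78.2 CPM. CPM values are shares of a library and are not scaled to gene length, so levels are compared between libraries and not between genes.

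Promoters were examined for the sequence through which interferon acts. The genes were listed as known members of this response, so the share with a match describes the list. The part of the motifs in the changes below was not tested. RefSeq promoters (GRCh38.p14, 250 bases before to 50 bases after the start) were matched for 34 of the 44 genes. The ISRE core GAAANNGAAA, searched on both strands, occurred in 22 of these 34 (64.7%) and in 996 of all 27305 promoters of that length (3.65%). The gamma-activated site (GAS) core TTCNNNGAA, which reads the same on both strands, occurred in 9 of 34 (26.5%) and in 2152 of 27305 (7.88%). Both motifs occurred in 6 promoters, and in 4 of these, IFITM1, BST2, IFI27 and EPSTI1, a GAS match overlaps an ISRE match. Of the 22 genes with an ISRE core, 21 were called lower in CM+FB+MF against MF Biowires (test below). Of the 12 without one, 10 were, beside 19.8% of all genes tested. Windows around a match are shown for genes on which the results below turn, on the strand of the gene, with the ISRE core in capitals.
ISG15: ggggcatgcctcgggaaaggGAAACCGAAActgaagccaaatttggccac
IFIT1: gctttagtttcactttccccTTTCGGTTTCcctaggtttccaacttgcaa
IFIT3: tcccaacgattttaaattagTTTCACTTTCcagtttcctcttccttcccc
IFITM1: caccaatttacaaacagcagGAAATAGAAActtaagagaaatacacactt
BST2: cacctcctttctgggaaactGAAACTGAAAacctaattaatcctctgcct
OAS3: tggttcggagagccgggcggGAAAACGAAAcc
IFI6: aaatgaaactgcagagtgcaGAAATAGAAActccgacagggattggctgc
IFI27: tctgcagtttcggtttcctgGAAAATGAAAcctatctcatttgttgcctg
EPSTI1: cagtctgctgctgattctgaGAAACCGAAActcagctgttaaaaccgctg

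The ISG15 window is chr1:1013370-1013419 on the plus strand and its match begins 107 bases before the start. The IFIT1 window is chr10:89392500-89392549 and the IFIT3 window chr10:89327855-89327904, both on the plus strand. In these 2 genes the match lies on the opposite strand, 103 and 122 bases before the start. IFITM1 (chr11:313980-314029), OAS3 (chr12:112938442-112938473) and IFI27 (chr14:94110621-94110670) are on the plus strand, with matches 40, 12 and 95 bases before the start. BST2 (chr19:17405725-17405774), IFI6 (chr1:27672256-27672305) and EPSTI1 (chr13:42992262-42992311) are on the minus strand, with matches 124, 93 and 50 bases before the start. The promoters of OAS1, IFI35 and IRF9 held a GAS match and no ISRE core. OAS1 and IFI35 were called lower in CM+FB+MF against MF Biowires, as most of the genes were. The IRF9 window is shown because this gene moved apart from the others. The capitals mark the GAS core, 63 bases before the start at chr14:24161182-24161230 on the plus strand.
IRF9: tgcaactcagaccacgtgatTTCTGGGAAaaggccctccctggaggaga

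The mean summed level of the interferon-stimulated genes was highest in Biowire macrophages kept alone, lower with FB and lowest with both FB and cardiomyocytes, but libraries of a group lay far apart. Summed over the 44 genes, the MF Biowire libraries of replicates 1, 2 and 3 stood at 4303, 12619 and 8956 CPM. The FB+MF libraries stood at 7710, 2715 and 3012 CPM, and the CM+FB+MF libraries at 3003, 2246 and 1968 CPM. All 3 CM+FB+MF libraries were below every MF library, whereas MF replicate 1 was below FB+MF replicate 1. Group means were 8626 ± 4168 (SD, n = 3), 4479 ± 2802 and 2405 ± 536 CPM in that order. The 9 digested libraries stood between 4739 and 4985 CPM, and their 3 groups overlapped.

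**Figure D1:**
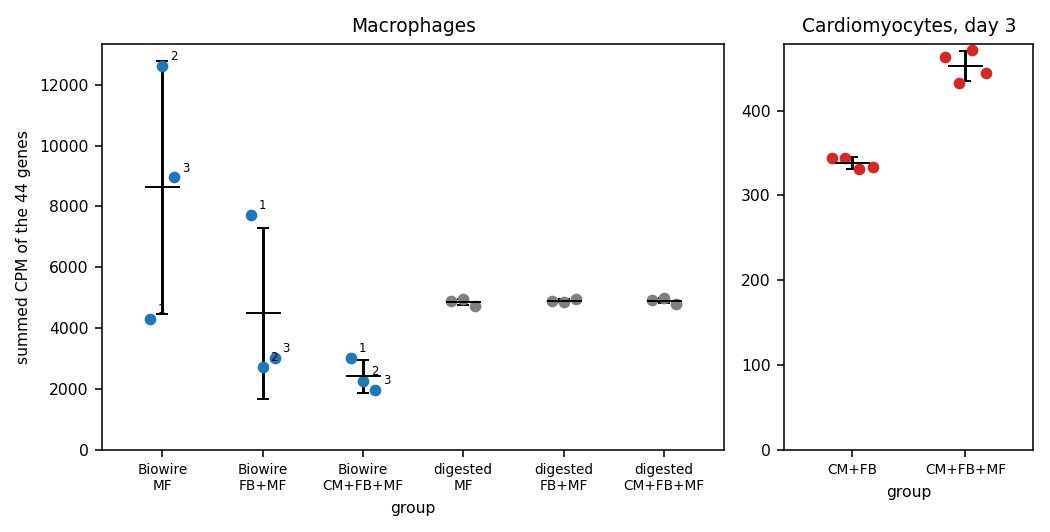
Summed CPM of the 44 genes in each library (points, Biowire replicate numbers beside them) with the group mean and SD (bars). The left panel shows the 18 macrophage libraries and the right panel, on its own axis, the 8 cardiomyocyte libraries. Digested macrophages lie between 4739 and 4985 CPM, while MF Biowire libraries spread from 4303 to 12619 CPM.

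The spread within a Biowire group was shared by nearly all of the genes. In the MF group, replicate 2 held the highest value for 43 of 44 genes and replicate 1 the lowest for 42, whereas over all genes tested these libraries held the highest and the lowest value for 31.9% and 40.8%. In the FB+MF group, replicate 1 was the highest for 44 of 44 genes, against 37.8% of all genes. In the CM+FB+MF group, replicate 1 was the highest for 40 and replicate 3 the lowest for 32, against 34% and 30.9% of all genes. The highest library exceeded the lowest by a median of 2.65-fold over the 44 genes in the MF group, 3.1-fold in FB+MF and 1.83-fold in CM+FB+MF. Over all genes tested these medians were 1.33-fold, 1.33-fold and 1.37-fold. In the digested groups the genes spread by a median of 1.06-fold to 1.16-fold, against 1.14-fold to 1.21-fold for all genes. The replicate numbers did not order the groups alike, as replicate 1 was low in MF and high in the other 2 groups.

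**Figure D2:**
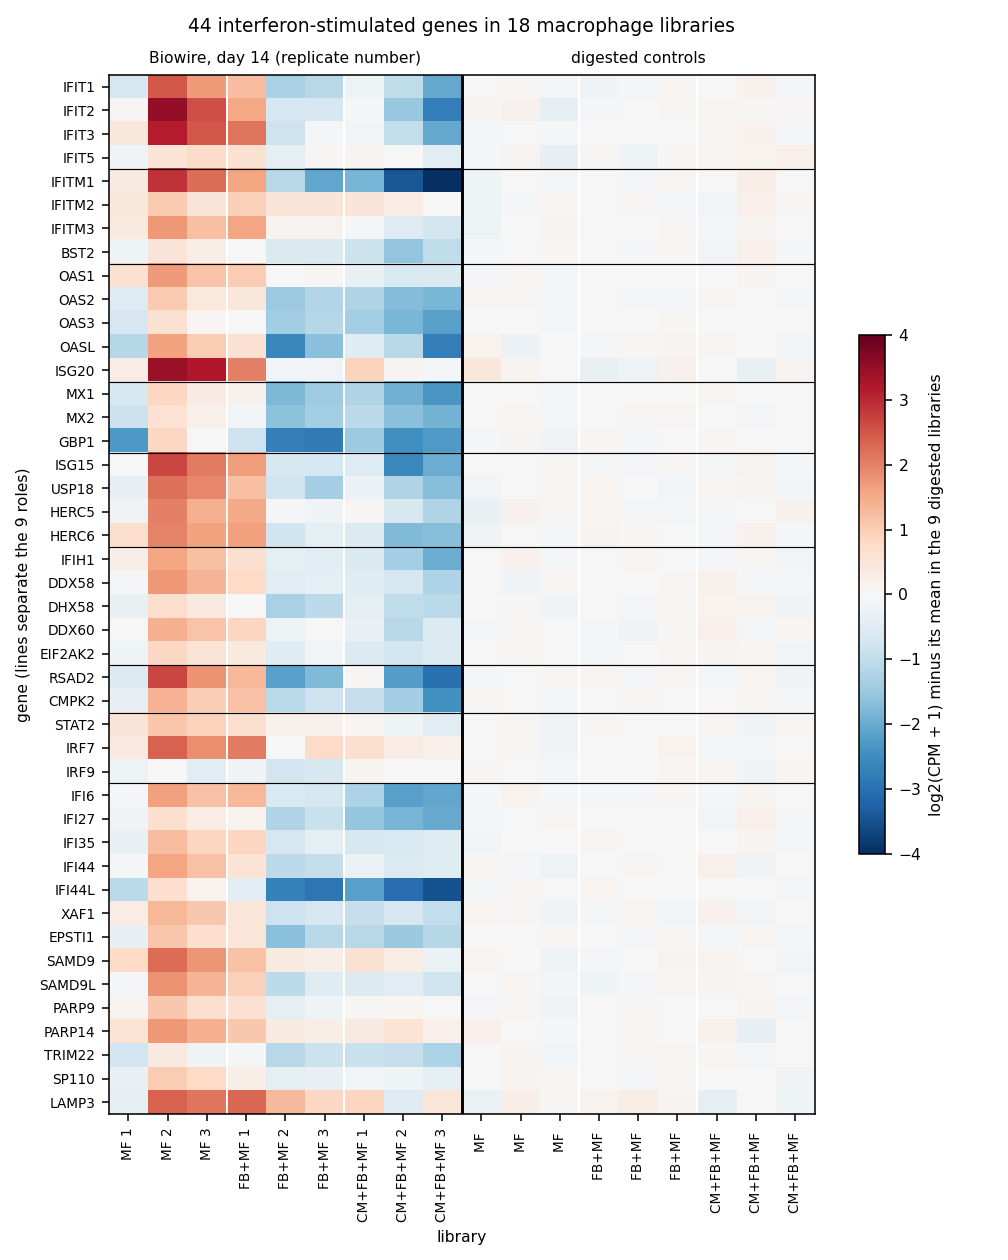
Level of each of the 44 genes (vertical axis) in each of the 18 macrophage libraries (horizontal axis), as log2(CPM + 1) minus its mean over the 9 digested libraries. MF replicates 2 and 3 and FB+MF replicate 1 are red across most genes, the other FB+MF and the CM+FB+MF libraries are mostly blue, and the digested libraries are near 0.

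With both FB and cardiomyocytes in the tissue, 38 of the 44 genes fell in Biowire macrophages compared with macrophages alone and none rose (edgeR quasi-likelihood test, Benjamini-Hochberg adjusted p below 0.05, 3 against 3 libraries). Among all 13952 genes tested 37.6% were called in either direction, 19.8% lower and 17.8% higher. The median log2 fold change of the 44 was -1.85, beside 0.00 over all genes tested. For 31 genes every CM+FB+MF library was below every MF library, which held for 24.6% of all genes tested. With any 1 library left out, the number of calls was between 26 and 42. The 6 genes that were not called were IFIT5, IFITM2, OASL, IRF9, PARP9 and LAMP3. In these sorted populations, fewer cells with an active response and less RNA per cell cannot be told apart. In the same comparison 17 of 20 macrophage markers were called higher and 2 lower, with a median log2 fold change of 1.19, and all 16 cardiomyocyte markers tested were called higher. The part of these markers in the result was not tested.

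Among the IFIT proteins, which bind viral RNA ends and cap structures, IFIT3 stood at 105, 685 and 436 CPM in MF and at 70.9, 37.9 and 17.8 CPM in CM+FB+MF. The 2 groups did not overlap, and IFIT3 fell by 3.25 ± 0.78 (SE) on the log2 scale, adjusted p = 0.00461. IFIT1 and IFIT2 were called lower as well, with log2 fold changes of -2.58 and -3.72. IFIT5 had a log2 fold change of -0.54 ± 0.28, adjusted p = 0.14, and was not called.

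Of the membrane proteins that restrict viral entry or release, 3 of 4 fell. BST2, or tetherin, which holds budding virus on the cell surface, was at 199, 323 and 267 CPM in MF and at 124, 75.6 and 111 CPM in CM+FB+MF. It fell 2.54-fold, a log2 fold change of -1.34 ± 0.22 with adjusted p = 0.000262, and no libraries overlapped. IFITM1, which blocks entry by fusion, went from 39.3, 236 and 148 CPM to 7.68, 1.99 and 0.286 CPM, the last from 2 counts. Its log2 fold change of -5.39 ± 1.05 was the most negative of the 44, and IFITM1 was picked for this after its values were seen. IFITM3 fell by 1.64 on the log2 scale, while IFITM2 had a log2 fold change of -0.42, adjusted p = 0.11. Transcripts of the IFITM genes share sequence, with 32% of IFITM1, 34.1% of IFITM2 and 17.4% of IFITM3 50-base stretches also found in other genes, so reads may be divided unevenly among them.

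The OAS enzymes make short oligoadenylates that activate RNase L, and ISG20 is an exonuclease. OAS3 stood at 352, 856 and 599 CPM in MF and at 221, 157 and 123 CPM in CM+FB+MF, and its log2 fold change was -1.84 ± 0.36, adjusted p = 0.0012. OAS1 stood at 236, 496 and 342 CPM against 124, 99 and 103 CPM, with a log2 fold change of -1.72 ± 0.28 and adjusted p = 0.000297. Both genes were lower in every CM+FB+MF library. OAS2 and ISG20 also fell, and OASL, at -2.15 ± 0.82, missed the threshold with adjusted p = 0.0551.

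All 3 dynamin-like GTPases fell. MX1, which traps viral nucleocapsids, was at 311, 858 and 601 CPM in MF and at 208, 126 and 94.4 CPM in CM+FB+MF, a 4.09-fold fall with a log2 fold change of -2.03 ± 0.48 and adjusted p = 0.00405. MX2 and GBP1 had log2 fold changes of -1.59 and -2.03. All 4 genes grouped here under the ISG15 system fell too. ISG15, a ubiquitin-like protein that is attached to other proteins, was at 111, 704 and 464 CPM in MF and at 77.2, 17.7 and 26.8 CPM in CM+FB+MF. The libraries did not overlap, and the fall was 10.4-fold, a log2 fold change of -3.37 ± 0.76 with adjusted p = 0.00332. USP18, which removes ISG15 and damps receptor signalling, had a log2 fold change of -2.67. The ligase HERC5 and its relative HERC6 had log2 fold changes of -1.91 and -2.92. For USP18, 23.4% of 50-base stretches are shared, most with USP41.

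All 5 RNA sensors and effectors fell, among them IFIH1 (MDA5) with a log2 fold change of -2.31 and DDX58 (RIG-I) with one of -2.005. EIF2AK2, the kinase PKR that halts translation, was at 91.6, 187 and 153 CPM in MF and at 70.7, 62.8 and 70.4 CPM in CM+FB+MF. Its libraries did not overlap and its log2 fold change was -1.08 ± 0.24, adjusted p = 0.00252. RSAD2 (viperin), which makes a chain-terminating nucleotide, was at 54.6, 520.1 and 282 CPM in MF and at 82.4, 16.7 and 9.31 CPM in CM+FB+MF. Here the groups overlapped, since CM+FB+MF replicate 1 exceeded MF replicate 1, and the log2 fold change was -2.95 ± 0.99, adjusted p = 0.031. RSAD2 was no longer called in 5 of 12 alternatives. Its partner CMPK2, a mitochondrial nucleotide kinase, fell by 2.34 on the log2 scale.

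The 3 subunits and regulators of transcription did not move alike. STAT2 was at 199.5, 305 and 268 CPM in MF and at 148, 123 and 103 CPM in CM+FB+MF, with no overlap and a log2 fold change of -1.04 ± 0.18, adjusted p = 0.000462. IRF7, the factor that amplifies type I interferon production, fell by 1.36 on the log2 scale. IRF9, the DNA-binding subunit of ISGF3, was at 62.6, 71.5 and 53.9 CPM in MF and at 77.9, 73.0 and 72.0 CPM in CM+FB+MF. Every CM+FB+MF library was above every MF library, but the log2 fold change of 0.24 ± 0.17 was not called, adjusted p = 0.291. For IRF9, 43.6% of 50-base stretches are shared, most with an annotated readthrough transcript, so its counts are less certain.

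Of the 14 other induced proteins, 12 fell. IFI27, a mitochondrial and nuclear membrane protein widely used as an interferon marker, was at 376, 645 and 509 CPM in MF and at 141, 113 and 102 CPM in CM+FB+MF. It had the smallest p of the 44, with a log2 fold change of -2.10 ± 0.30 and adjusted p = 8.45e-05. IFI6 and IFI44L had log2 fold changes of -2.83 and -2.91. PARP9 and LAMP3 were not called, and LAMP3 was at no more than 6.44 CPM in any library.

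**Figure D3:**
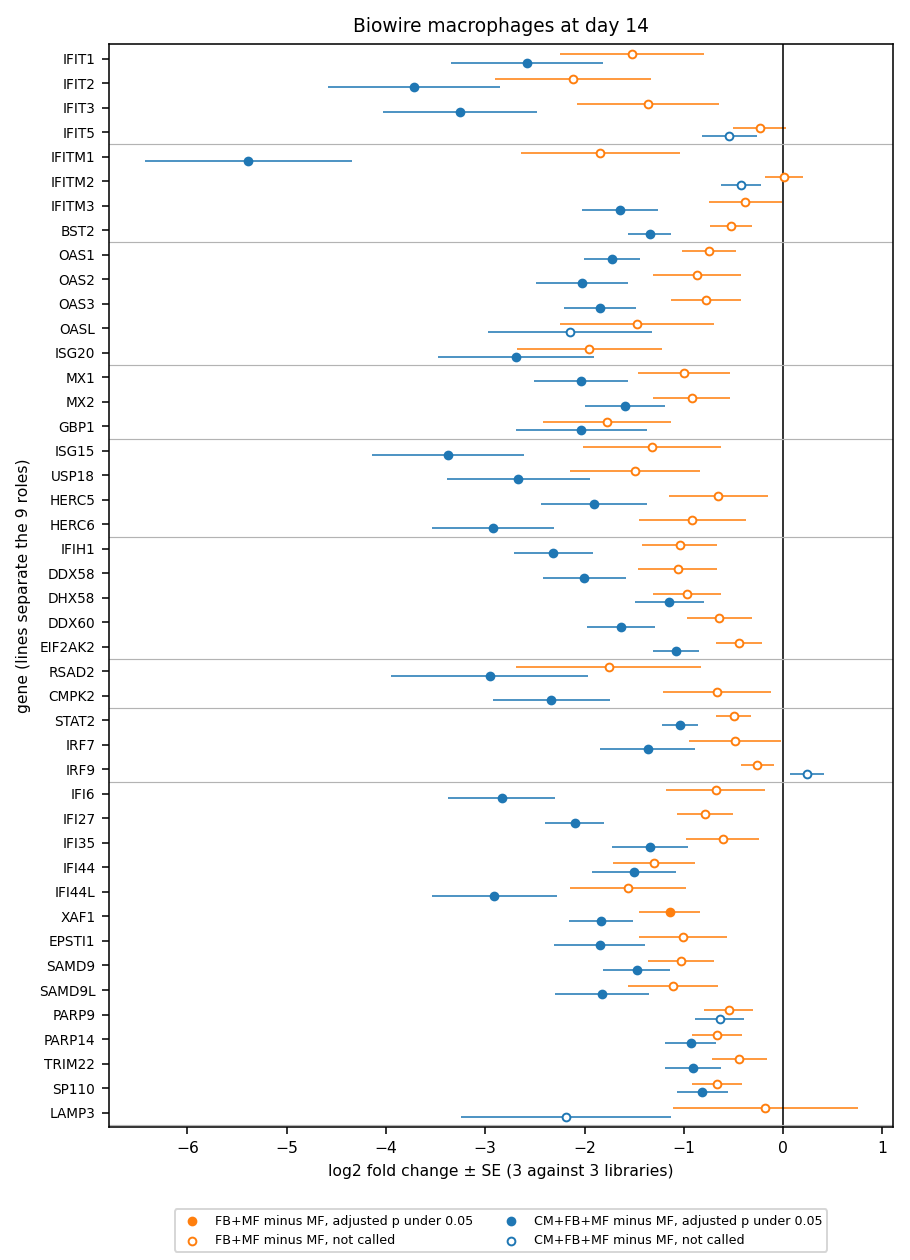
Log2 fold change with SE (bars) of each gene in Biowire macrophages from FB+MF (orange) and CM+FB+MF (blue) against the same 3 MF libraries, so the 2 comparisons share controls. Filled points have an adjusted p below 0.05. In the CM+FB+MF comparison 38 points are filled, all below 0, and in the FB+MF comparison only XAF1 is.

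With FB alone added, the fold changes pointed down for 43 of 44 genes, but only 1 gene was called, XAF1. The median log2 fold change was -0.89 over the 44 and -0.01 over all genes tested, of which 6.16% were called in either direction, 2.14% lower and 4.03% higher. Of the 20 macrophage markers 11 were called higher and 0 lower, and their part in the result was not tested. No gene had FB+MF and MF libraries that did not overlap, which occurred for 23.9% of all genes tested, and 24 of the 44 had an unadjusted p below 0.05. XAF1, a pro-apoptotic protein that binds XIAP, was at 83.4, 173 and 143 CPM in MF and at 95.3, 37.5 and 42.0 CPM in FB+MF. FB+MF replicate 1 exceeded MF replicate 1, and the log2 fold change was -1.14 ± 0.31, adjusted p = 0.044. DESeq2 did not call XAF1, adjusted p = 0.0979.

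The next smallest p-values belonged to IFI44 and SAMD9. IFI44 was at 35.8, 112 and 85.2 CPM in MF and at 55.1, 17.4 and 18.6 CPM in FB+MF, a log2 fold change of -1.30 ± 0.41 with adjusted p = 0.0895. SAMD9, an antiviral protein that blocks translation, was at 47.9, 130.0 and 93.6 CPM against 62.5, 34.7 and 31.9 CPM, at -1.03 ± 0.33 and adjusted p = 0.0928. In all 3 genes FB+MF replicate 1 lay within the MF range and the other 2 FB+MF libraries below it.

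The call count depended on which library was left out. Without FB+MF replicate 1, 33 genes were called lower, and without MF replicate 1, 12 were. Without MF replicate 2, MF replicate 3, FB+MF replicate 2 or FB+MF replicate 3, 0 were called. With the replicate 1 libraries of all 3 Biowire groups left out together, 41 were called, all lower, with a median log2 fold change of -1.85. Replicate 1 was the lowest MF library (4303 CPM summed) and the highest FB+MF library (7710 CPM summed). Leaving out either or both widens the difference, so these higher counts are not separate support for it. ISG15 shows the same arrangement, at 353, 70.5 and 66.5 CPM in FB+MF beside the 111, 704 and 464 CPM in MF given above, and its log2 fold change of -1.32 ± 0.70 was not called, adjusted p = 0.354.

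**Figure D4:**
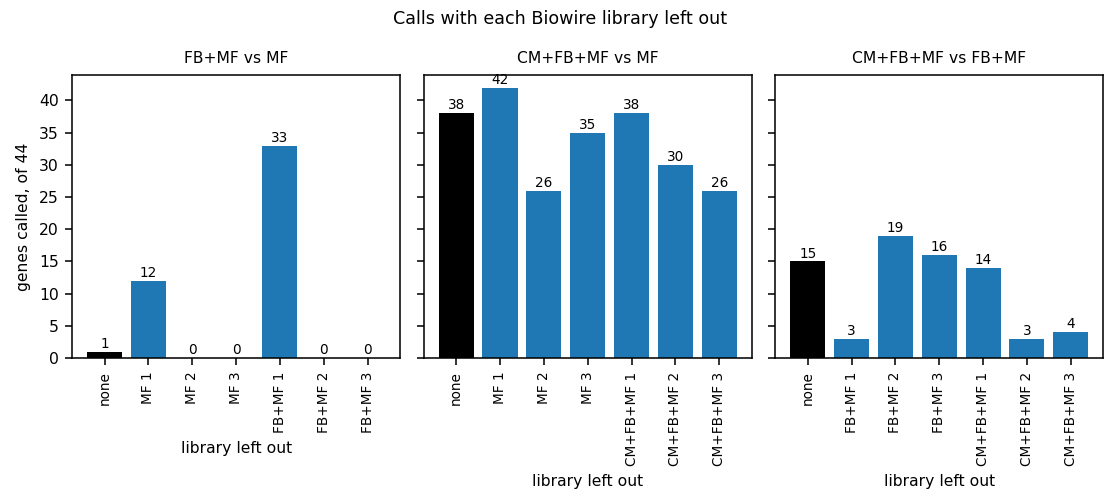
Number of the 44 genes called at an adjusted p below 0.05 (vertical axis) with no library left out (black) and with each Biowire library left out in turn (blue), for 3 comparisons. For CM+FB+MF against MF the count stays between 26 and 42, and for FB+MF against MF it runs from 0 to 33.

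Adding cardiomyocytes to tissue that already held FB gave 15 calls, 14 lower and 1 higher, where 35.5% of all genes tested were called in either direction, 19.1% lower and 16.4% higher. Macrophage markers were called higher for 12 of 20 and lower for 2, and cardiomyocyte markers higher for 16 of 16 tested, and their part in the result was not tested. The median log2 fold change of the 44 genes was -0.91, and 11 genes had every CM+FB+MF library below every FB+MF library, as had 23.5% of all genes tested. IFI27 was at 456, 179.7 and 224 CPM in FB+MF, above the 141, 113 and 102 CPM in CM+FB+MF, a log2 fold change of -1.31 ± 0.29 with adjusted p = 0.00333. IFI6, a protein of the endoplasmic reticulum that limits flavivirus replication, was at 624, 162 and 150.1 CPM against 104, 54.3 and 57.7 CPM, at -2.16 ± 0.53 and adjusted p = 0.00613. BST2 was at 229.5, 150.2 and 152 CPM in FB+MF, with a log2 fold change of -0.82 ± 0.22 and adjusted p = 0.00969. None of these 3 genes overlapped between the groups.

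IRF9 was the only gene called higher, at 65.2, 42.4 and 45.7 CPM in FB+MF and 77.9, 73.0 and 72.0 CPM in CM+FB+MF. Its log2 fold change was 0.50 ± 0.17, adjusted p = 0.0344, and it was no longer called in 4 of 12 alternatives, among them without FB+MF replicate 2 (adjusted p = 0.153). FB+MF replicate 1 also set much of the count. Without it 3 genes were called, 2 of them lower, and the median log2 fold change was -0.14. Without CM+FB+MF replicate 2 the count was 3, and without CM+FB+MF replicate 3 it was 4.

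In the digested controls the combination of cells made no detectable difference to these genes. Of 43 genes tested (LAMP3 was too low), 0 were called for FB+MF against MF, for CM+FB+MF against MF or for CM+FB+MF against FB+MF by edgeR or by DESeq2, and 0 had an unadjusted p below 0.05. Among all 12960 genes tested, 1.6%, 2.69% and 0.239% were called. The median log2 fold changes of the 43 were 0.02, 0.03 and 0.02. ISG15 stood at 110.0, 111 and 114 CPM in MF, 106, 104 and 112 CPM in FB+MF and 104, 121 and 107 CPM in CM+FB+MF. IFIT3 lay between 72.1 and 86.0 CPM in all 9 libraries. Summed fibroblast markers in the same libraries rose from at most 290.5 CPM in MF to at least 1026 CPM in FB+MF and 917 CPM in CM+FB+MF.

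Biowire macrophages were next set against digested macrophages of the same combination, in a joint fit over 17919 shared genes and 18 libraries. The 2 sets differ in culture, in table and possibly in processing day, and these cannot be told apart. For macrophages alone, 24 genes were higher in the Biowire and 1, IRF9, was lower, where 46% of all genes tested were called in either direction, 23.2% higher and 22.8% lower. Beside this, 14 of 20 macrophage markers were called lower and 2 higher (median log2 fold change -0.90), and 7 of 11 fibroblast markers tested were called higher and 1 lower (median 3.11). The part of these markers in the result was not tested. SAMD9 was at 28.3, 26.3 and 23.9 CPM in digested MF, below all 3 MF Biowire libraries, with a log2 fold change of 1.59 ± 0.28 and adjusted p = 0.000106. PARP14, a mono-ADP-ribosyl transferase, was at 317, 720.1 and 575 CPM in the Biowire and at 250.2, 211 and 204 CPM in digested MF, at 1.08 ± 0.22 and adjusted p = 0.000437. STAT2 was at 142, 144 and 127 CPM in digested MF, with a log2 fold change of 0.71 ± 0.15 and adjusted p = 0.000574. These 3 genes did not overlap between the sets.

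The Biowire MF libraries differed among themselves in this respect. Replicate 2 was above the digested mean for 44 of 44 genes and replicate 3 for 42, whereas replicate 1 was above it for 16 and below it for 28. Without replicate 2 the count of calls was 10, 8 higher and 2 lower, and without replicate 3 it was 16. Leaving out a single digested MF library gave as few as 12 calls. IRF9 was at 74.5, 71.2 and 67.9 CPM in digested MF, overlapping the Biowire values, with a log2 fold change of -0.38 ± 0.13 and adjusted p = 0.0275.

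For FB+MF, 3 genes were higher and 9 lower in the Biowire than in digested cells, where 47.1% of all genes tested were called, 23.1% higher and 24% lower. Of 20 macrophage markers 6 were called higher and 8 lower, and of 11 fibroblast markers 0 higher and 6 lower, and their part in the result was not tested. The 3 smallest p-values belonged to genes that were lower. IRF9 was at 72.0, 73.8 and 74.5 CPM in digested FB+MF, above all 3 Biowire values, with a log2 fold change of -0.67 ± 0.14 and adjusted p = 0.000404. GBP1, a GTPase that attacks vacuoles of intracellular pathogens, was at 44.4, 11 and 10.3 CPM in the Biowire and at 82.7, 76.0 and 79.6 CPM in digested cells, at -1.99 ± 0.53 and adjusted p = 0.00417. IFI44L was at 149, 29.7 and 25.7 CPM in the Biowire and at 210.2, 198 and 202 CPM in digested cells, at -1.71 ± 0.48 and adjusted p = 0.00621. Sharing of 9.62% of its 50-base stretches with other GBP genes makes GBP1 less certain.

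The 3 genes that were called higher in FB+MF Biowires were IFITM2, IRF7 and LAMP3. Of 11 alternatives, the call was lost in 3 for IFITM2, in 7 for IRF7 and in 6 for LAMP3. IFITM2 was at 57.3, 42.9 and 42.2 CPM against 29.5, 30.6 and 27.7 CPM, a log2 fold change of 0.55 ± 0.17 with adjusted p = 0.0125. IRF7 was at 145, 34.2 and 57.7 CPM against 34.0, 33.8 and 37.0 CPM, so the sets overlapped, with 1.04 ± 0.40 and adjusted p = 0.0373. LAMP3, a lysosomal protein of mature dendritic cells, was at 6.12, 2.53 and 1.53 CPM against 0.584, 0.776 and 0.554 CPM, with 2.26 ± 0.90 and adjusted p = 0.0458. Without FB+MF replicate 1, 24 genes were called, all lower, and without FB+MF replicate 2, 6 were. Leaving out 1 of the digested FB+MF libraries gave 7.

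For CM+FB+MF, 23 genes were lower in the Biowire than in digested cells and 0 higher, where 50.5% of all genes tested were called in either direction and 26.1% lower. Of 20 macrophage markers 12 were called higher and 4 lower, of 16 cardiomyocyte markers 15 higher, and of 11 fibroblast markers 8 lower, and their part in the result was not tested. IFI27 was at 383, 477 and 396 CPM in digested cells and fell 4-fold in the Biowire, a log2 fold change of -2.002 ± 0.25 with adjusted p = 1.74e-06. BST2 was at 208, 259.7 and 217 CPM in digested cells, with -1.33 ± 0.19 and adjusted p = 7.1e-06. OAS3 was at 574, 555 and 569.6 CPM in digested cells, with -1.94 ± 0.30 and adjusted p = 2.26e-05. All 3 were lower in every Biowire library. Of the 44 genes, 31 had all Biowire libraries below all digested libraries and 2 had them above, against 20.6% and 35.6% of all genes tested.

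The difference between the Biowire and the digested effect of adding FB and cardiomyocytes was tested as an interaction. It was called for 34 of 44 genes, all lower in the Biowire, where 31.2% of all genes tested were called in either direction and 16.8% lower, and the median of the 44 was -1.84. The same interaction was called for 17 of 20 macrophage markers as higher and 2 as lower, and for 8 of 11 fibroblast markers as lower, and their part in the result was not tested. The interaction for FB alone was called for 0 of 44 by edgeR and by DESeq2, with 12 at an unadjusted p below 0.05, and 4.84% of all genes tested were called. Its median was -0.86. Without FB+MF replicate 1 that count was 32, and without MF replicate 1 it was 6.

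Day 3 cardiomyocytes held more RNA of these genes when macrophages were in the tissue. Their summed level over the 44 genes was 331 to 345 CPM without macrophages and 433 to 472 CPM with them, and the 4 libraries of one group did not overlap those of the other. Of 36 genes tested, 13 were higher in the presence of macrophages and 0 lower, where 12.7% of all 16046 genes tested were called, 6.79% higher and 5.88% lower. The median log2 fold change was 0.55, beside 0.02 over all genes tested. Leaving out any 1 library gave 9 to 13 calls. Calls were spread over several roles, with 2 IFIT genes, 2 membrane proteins, MX1, IRF9 and 7 of the other induced proteins, and none among the ISG15 system or the RNA sensors.

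EPSTI1 was at 31.3, 31.5, 28.3 and 29.6 CPM without macrophages and at 67.0, 55.8, 53.5 and 54.7 CPM with them. Its log2 fold change was 0.92 ± 0.08, adjusted p = 7.02e-06. IFIT1 was at 14.0, 16, 12.2 and 11.8 CPM without and at 34.5, 28.5, 29.1 and 29 CPM with macrophages, a log2 fold change of 1.15 ± 0.11 with adjusted p = 1.28e-05. Neither gene overlapped between the groups.

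PARP9, a partner of the ligase DTX3L, was at 11.1, 11, 10.3 and 10.5 CPM without and at 17.3, 18.7, 17.9 and 16.8 CPM with macrophages, at 0.70 ± 0.09 and adjusted p = 0.000124. BST2 was at 4.33, 3.87, 2.94 and 3.74 CPM without and at 7.42, 7.46, 6.72 and 9.36 CPM with them, at 1.03 ± 0.17 and adjusted p = 0.00107. IRF9, which was called higher here too, had a log2 fold change of 0.51 ± 0.08 and adjusted p = 0.00078. ISG15 ran from 10.2 to 12.7 CPM without and from 11 to 16.6 CPM with macrophages, and its log2 fold change of 0.27 ± 0.13 was not called, adjusted p = 0.234. STAT2 and EIF2AK2, at -0.11 and 0.01, were not called either.

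Macrophage RNA in the cardiomyocyte libraries was measured beside these values. The 20 macrophage markers summed to 14.3 to 16.8 CPM without and 40.4 to 96.6 CPM with macrophages. FCGR3A and C1QA were at 0 in all libraries without macrophages, and no marker was at 0 in all libraries with them. The gain was 0.25% to 0.375% of the level in the macrophage groups. At that share, the highest macrophage group mean would add 0.847 CPM of EPSTI1, where the gain was 27.6 CPM, and 0.686 CPM of IFIT1, where the gain was 16.7 CPM. The gain exceeded this highest carried level for 11 of the 13 genes called and was below it for MX1 and IFI44L. For IFIT3, among the 11, the gain was 1.85 CPM beside a carried level of 1.53 CPM. The macrophage groups were day 14 Biowire or digested cells, not day 3 cells, and single libraries lay above their group mean. Macrophage RNA as a source of the gains was not tested. Fibroblast markers summed to 2708 to 4945 CPM without and 3257 to 6180 CPM with macrophages, so the groups overlapped, and 2 of 14 were called higher and 0 lower. The part of the fibroblast markers in the result was not tested.

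**Figure D5:**
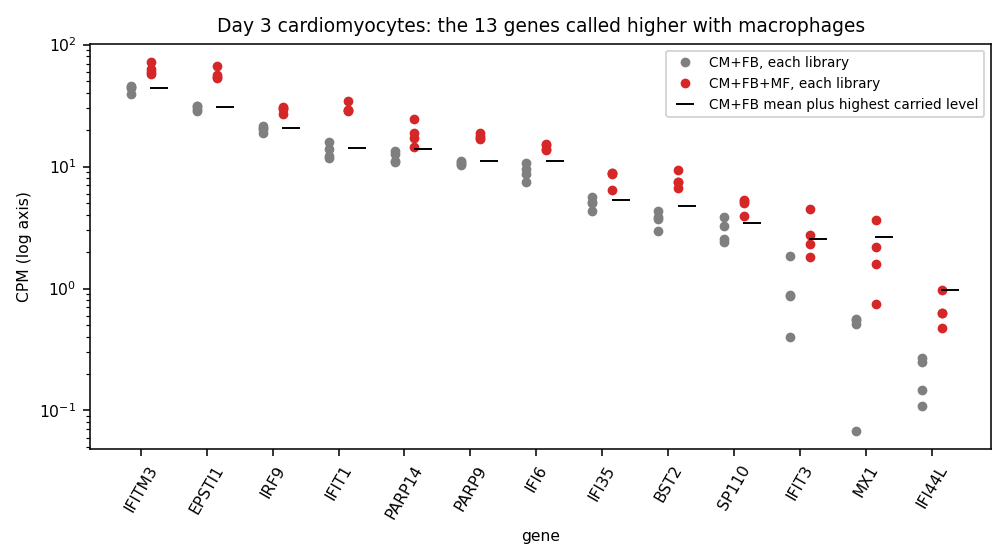
CPM (log axis) in the 4 cardiomyocyte libraries without (grey) and the 4 with macrophages (red) for the 13 genes called higher. The black dash is the CM+FB mean plus the highest level that any macrophage group mean would add at the measured marker share. These groups were day 14 Biowire or digested macrophages, so the dash is not an upper limit. Gains lie far above the dash for EPSTI1, IFIT1 and PARP9 and below it for MX1 and IFI44L.

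The ligands themselves were close to the floor. Of 24 interferon genes and aliases looked up, 3 had an entry in the Biowire table, and their summed level was at most 1.72 CPM in any Biowire macrophage library. No ligand passed the filter on low counts in any comparison. Plasmacytoid dendritic cells are a known source of type I interferon. Of their 6 markers 4 had an entry in the Biowire table, and these summed to 40.3 to 60.6 CPM in MF, 28.1 to 42.5 CPM in FB+MF and 49.3 to 53.1 CPM in CM+FB+MF. TCF4 made up most of this sum in every Biowire library. LILRA4 lay between 2.25 and 8.08 CPM, and SPIB was at 0 in all Biowire macrophage libraries but 1 of CM+FB+MF, with 5 counts. In CM+FB+MF against MF 1 of the 3 markers tested was called higher, IL3RA, at 7.68 to 11.46 CPM against 1.61 to 3.40 CPM.

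Receptor and kinase genes were called in both directions. Of 10 receptor and kinase genes tested in CM+FB+MF against MF Biowires, 6 were higher and 2 lower, where 17.8% of all genes tested were called higher and 19.8% lower. IFNAR2 was at 40.0, 47.6 and 46.3 CPM in MF, 59.5, 77.4 and 69.4 CPM in FB+MF and 107, 139 and 138 CPM in CM+FB+MF. No 2 of these groups overlapped, and the log2 fold change from MF was 0.65 ± 0.13 (adjusted p = 0.00723) in FB+MF and 1.51 ± 0.13 (adjusted p = 9.17e-07) in CM+FB+MF.

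Genes of the interferon-gamma response fell in greater number than they rose in CM+FB+MF, with 12 of 17 tested lower and 3 higher against MF, beside 19.8% and 17.8% of all genes tested. WARS, a tryptophanyl-tRNA synthetase, was at 188, 279 and 265 CPM in MF and at 64.3, 54.5 and 49.8 CPM in CM+FB+MF, a log2 fold change of -2.11 ± 0.18 with adjusted p = 7.21e-07. CXCL10, a T cell chemokine named after its values were seen, was at 6.53, 242 and 126 CPM in MF, 4.1, 1.12 and 3.07 CPM in FB+MF and 10.9, 3.85 and 0 CPM in CM+FB+MF. It was called lower in FB+MF against MF, with a log2 fold change of -5.42 ± 1.04 and adjusted p = 0.00612, and all 3 FB+MF libraries were below MF replicate 1. In cardiomyocytes with macrophages 9 of 13 genes of this list were higher and 1 lower, beside 6.79% and 5.88% of all genes tested, among them APOL2 at 0.72 ± 0.08, adjusted p = 7.53e-05.

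A further list of 43 interferon-stimulated genes outside the 44 gave 20 lower and 3 higher of 41 tested in CM+FB+MF against MF, beside 19.8% and 17.8% of all genes tested. In FB+MF against MF it gave 3 lower and 2 higher, beside 2.14% and 4.03% of all genes tested. GMPR, a guanosine monophosphate reductase, was at 56.9, 92.6 and 77.7 CPM in MF, 48.3, 21.1 and 26.4 CPM in FB+MF and 7, 2.24 and 2.72 CPM in CM+FB+MF, with a log2 fold change of -4.24 ± 0.40 in the last, adjusted p = 2.15e-06. FCGR1A, the high-affinity Fc receptor, went the other way, at 32.9, 42.0 and 40.0 CPM in MF and 117, 105 and 147 CPM in CM+FB+MF, a log2 fold change of 1.68 ± 0.13 with adjusted p = 3.81e-07. In cardiomyocytes 6 of 35 were higher with macrophages and 1 lower, beside 6.79% and 5.88% of all genes tested. PLSCR1, a scramblase that restricts virus entry, was higher by 1.34 ± 0.13, adjusted p = 2.01e-05, and PARP12 by 0.87 ± 0.07, adjusted p = 2.97e-06. GMPR was the gene called lower, and it fell by 0.68 on the log2 scale.

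Sensors and regulators were divided. Of 22 sensors and adaptors tested, 6 were higher and 6 lower in CM+FB+MF against MF, beside 17.8% and 19.8% of all genes tested. TRAF3, an adaptor of the sensor pathways, had a log2 fold change of -1.12 ± 0.11, adjusted p = 2.18e-06, and TMEM173 (STING) one of 1.72 ± 0.25, adjusted p = 0.000103. Of 11 regulators, 3 were higher and 2 lower. IRF2, which competes with activating IRFs, had a log2 fold change of -1.22 ± 0.12, adjusted p = 3.67e-06. SOCS3, an inhibitor of JAK kinases, was at 2.30, 4.17 and 6.12 CPM in MF, 38.5, 27.8 and 42.6 CPM in FB+MF and 24.5, 18.4 and 6.30 CPM in CM+FB+MF. Every library with FB exceeded every MF library, and the log2 fold change was 3.14 ± 0.42 in FB+MF, adjusted p = 0.000411, and 1.96 ± 0.42 in CM+FB+MF, adjusted p = 0.00225.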

How the data were processed

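The authors deposited raw read counts per gene in 3 tables, per the file headers and values: Biowire macrophages, digested control macrophages and day 3 cardiomyocytes. The submitters' processing notes name STAR 2.7.9a, HTSeq 0.11.0, DESeq2, R 4.3.2 and hg19. Libraries were made with a stranded total RNA kit, and no source used here gives the strand setting of the counting. Names of the digested columns and of those of cardiomyocytes with macrophages give the combination of cells but could not each be tied to 1 sample, so these columns served as replicates of their group without a number.

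Counts were fitted over all genes of a table with edgeR 4.0.16 in R 4.3.3 (filterByExpr, TMM, quasi-likelihood test over all groups of the table) and adjusted by the Benjamini-Hochberg method over all genes tested, and a gene was called below 0.05. Counts of the 2 macrophage tables were joined for 3 comparisons and 2 interactions. CPM used library totals. All tests are two-sided. The procedure was tested on simulated data in which genes varied independently, so the spread between libraries shared by the 44 genes was not covered. Of the 44 genes, values in each library were given for the gene of highest mean CPM in each role. They were also given for the 3 with smallest p in each comparison with a call, and for those called against the prevailing direction. IFITM1 was added outside this rule after its values were seen. The 44 genes, the other gene lists and the alternatives were chosen with earlier results of these data known. DESeq2 1.42.0, RLE size factors, no filter, only the compared groups, a replicate block and left-out libraries were tried. Shared 50-base stretches came from GENCODE 29 transcripts. The values of 1 gene are not reported here.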

Additional observations from a re-analysis of the deposited data

Results flagged for a closer look

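The effect of adding FB and cardiomyocytes to macrophages differed between the Biowire and the digested cells for 34 of 44 genes by the interaction test (edgeR, adjusted p below 0.05). The interaction, as a log2 difference, was -2.10 for IFI27, -1.77 for OAS1, -1.35 for BST2, -3.35 for IFIT3, -1.85 for OAS3, -2.06 for MX1, -3.34 for ISG15, -1.07 for EIF2AK2 and -1.05 for STAT2.

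In cardiomyocytes 72 groups of 4 libraries were checked for a single library far from the others, and 6 had one, where chance gives about 1 in 20. With macrophages, 1 library was high for IFIT1 at 34.5 CPM (next 29.1) and for USP18 at 2.96 CPM (next 1.84). Another was low for IFI35 at 6.47 CPM (next 8.66) and for TRIM22 at 3.31 CPM (next 5.71). Without macrophages, 1 library was high for IFIT2 at 1.49 CPM (next 0.495) and the same library low for MX1 at 0.0679 CPM (next 0.51).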

How the results depend on the processing

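The count of genes called for CM+FB+MF against MF in Biowires stayed within 1.5 times of its value under every alternative tried, as did those for the cardiomyocytes and for the interaction with CM+FB+MF, and no digested comparison called any of the 44 under any alternative. For FB+MF against MF the count was 16 with no filter, 0 with only the compared groups and 41 without the replicate 1 libraries, and 0 to 33 with 1 library left out. Replicate 1 was the lowest MF and the highest FB+MF library in summed level, so its removal widens that difference. For CM+FB+MF against FB+MF it was 8 with DESeq2 and 26 with no filter, and 3 to 19 with 1 library left out. Without the Biowire replicate 1 libraries it was 31 for FB+MF and 36 for CM+FB+MF Biowire against digested, and 42 for the FB+MF interaction. With 1 library left out, these comparisons gave 6 to 24, 17 to 27 and 0 to 32, and MF Biowire against digested 10 to 30. The ISG15 log2 fold change in FB+MF Biowire against digested turned from 0.47 to -0.81 without the replicate 1 libraries. Over all genes tested, calls in digested CM+FB+MF against FB+MF went from 31 to 49 with DESeq2, to 53 with no filter and to between 19 and 72 with 1 library left out. Calls in digested FB+MF against MF went from 207 to as few as 99, those in Biowire FB+MF against MF from 860 to as few as 549, and those of the FB+MF interaction from 696 to 1242 without the replicate 1 libraries. The causes were not tested. Low counts limit LAMP3, and 8 genes were too low to test in cardiomyocytes.

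The Biowire libraries were not paired by replicate number in the main fit. Correlations of deviations from the group means ran from 0.0117 to 0.212 between same-numbered libraries of different groups. Between differently numbered libraries they ran from -0.181 to 0.113. Whether same-numbered libraries share a source was not tested. With the number as a block, 0 genes were called for FB+MF against MF. No paired analysis was possible for the digested, cardiomyocyte and joint comparisons because the digested columns, and those of cardiomyocytes with macrophages, could not each be tied to 1 numbered sample.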
